A study of Mus musculus with 6 samples.

Results

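The Zic genes encode a family of zinc-finger transcription factors, and 4 of them, Zic1, Zic2, Zic4 and Zic5, were measured with 8 probe sets among the 18194 genes and 45101 probe sets of the array. A probe set was taken as a member when the annotation of the array gave it a single gene symbol and that symbol was a Zic gene. A gene's level is that of its brightest probe set, judged by the mean of the 6 arrays. The family was chosen by its difference in log2 signal between the 2 groups of embryos, so that the values of this contrast are given as a description without a test.

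RNA came from branchial arch 1, the embryonic forerunner of the jaws, of mouse embryos at embryonic day 11.5, with 1 arch and 1 array per embryo. All 6 embryos carried conditional lox alleles of Ezh2 (Ezh2lox/lox), the catalytic subunit of Polycomb repressive complex 2, a histone methyltransferase that keeps developmental genes silent. The 3 embryos called labelled mutant below also carried, per their labels, the transgene Wnt1Cre, which directs Cre recombinase to the neural crest lineage. Arch epithelium, vessels and the mesodermal core lie outside that lineage. The 3 embryos called labelled control had the lox alleles without the transgene, and no group carried Wnt1Cre without lox alleles. The groups were compared to find what loss of Ezh2 does to expression in the arch.

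Zic proteins bind DNA through a block of zinc fingers related to that of the Gli proteins, the effectors of Hedgehog signalling, and are the vertebrate relatives of the Drosophila protein Odd-paired. In vertebrate embryos they act at the neural plate border, where neural crest is induced, and later in the dorsal neural tube, the somites and the cerebellum. Mouse Zic genes lie in neighbouring pairs, Zic1 beside Zic4 on chromosome 9 and Zic2 beside Zic5 on chromosome 14. CpG-rich promoters of developmental transcription factors are common binding sites of Polycomb complexes.

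The bases before the annotated starts of Zic1, Zic4 and Zic5, the members with a promoter sequence at hand, are shown as a description. Each window holds the 250 bases before the start, 5′ to 3′ on the strand of the gene, with CpG dinucleotides in capitals (RefSeq, build GRCm38.p6).
Zic1, chr9:91365769-91366018, minus strand: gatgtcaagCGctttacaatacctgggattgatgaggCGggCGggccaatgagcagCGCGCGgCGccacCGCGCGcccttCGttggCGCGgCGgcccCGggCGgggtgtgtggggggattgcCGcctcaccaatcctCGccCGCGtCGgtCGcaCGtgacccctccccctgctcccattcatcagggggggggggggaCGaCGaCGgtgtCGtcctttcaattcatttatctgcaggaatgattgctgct
Zic4, chr9:91368722-91368971, plus strand: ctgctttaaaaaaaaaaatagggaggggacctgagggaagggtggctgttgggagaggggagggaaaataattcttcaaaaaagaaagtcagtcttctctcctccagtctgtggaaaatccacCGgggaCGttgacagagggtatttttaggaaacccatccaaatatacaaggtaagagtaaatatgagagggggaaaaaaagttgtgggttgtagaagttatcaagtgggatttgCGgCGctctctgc
Zic5, chr14:122465659-122465908, minus strand: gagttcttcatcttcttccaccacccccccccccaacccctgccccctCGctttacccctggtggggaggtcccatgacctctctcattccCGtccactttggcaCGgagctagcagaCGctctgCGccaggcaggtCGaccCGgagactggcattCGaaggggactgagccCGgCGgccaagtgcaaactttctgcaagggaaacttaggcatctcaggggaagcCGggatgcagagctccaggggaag

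The Zic1 window held 27 CpG dinucleotides and the Zic4 window 4, against a median of 6 over 32841 windows of the same length. Of all windows, 8.57% held at least as many as that of Zic1 and 62.2% at least as many as that of Zic4. The Zic5 window held 11, a count reached by 35.6% of windows. The motif counted was CG, which reads the same on both strands. The share of G and C was 66% for Zic1, 44.4% for Zic4 and 62.4% for Zic5, with a median of 52.4% over all windows. Zic1 and Zic5, whose windows held more CpG than the median window, are members with lower signals in the labelled-mutant arches. The Zic4 probe sets were dim in both groups, so that the small Zic4 difference cannot be set against its CpG count. Whether CpG content goes with the differences was not tested. A window around 1 annotated start is a description of sequence and shows nothing about Ezh2 binding, and no window of Zic2 was used.

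The values are log2 signals as processed by the authors, and every difference is the labelled-mutant mean less the labelled-control mean in log2 units, with mean ± SD over n = 3 arrays per group. On every array 25% of all probe sets lay below 4.32, which is used here to mark the low end of the scale. The targeted gene gave no separation by label. Ezh2 read 11.63 ± 0.15 and 11.66 ± 0.01 in labelled-control and labelled-mutant arches (limma, Benjamini-Hochberg adjusted p = 0.906). Where this probe set lies with respect to the floxed exons is not known here, so it says nothing about the labels. Sex-linked genes divided the arrays exactly as the labels do, with Xist at 5.62 ± 0.15 and 13.03 ± 0.10 and Kdm5d, Eif2s3y and Uty of the Y chromosome lower by 6.23, 5.74 and 4.94 in the labelled-mutant arches (a log2 difference). All 4 passed limma's threshold. Embryo sex and genotype label therefore cannot be told apart in any Zic value below. Several Hox genes, normally silent in this arch, were high on the arrays labelled control and low on those labelled mutant, with values given beside Zic1, so that groups are named by label only. Markers of arch mesenchyme were present throughout, with 13 measured genes whose mean log2 signal was 9.56 to 9.62 over the labelled-control and 9.98 to 10.09 over the labelled-mutant arrays, and none of them lay at the low end on all arrays.

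Zic1, Zic2 and Zic5 read lower in every labelled-mutant arch than in any labelled-control arch by wide margins, while the Zic4 probe sets gave dim signals in each group. The size of the difference ran from 7.22 for Zic1 to 0.19 for Zic4 on the log2 scale. Of the 4 members, 3 passed an adjusted p of 0.05 in limma's fit across all genes, all with lower values in the labelled-mutant arches, where 4.3% of all genes did so. At gene level all 4 members had groups that did not overlap with the labelled mutant lower, as had 11.9% of all genes. Since the family was chosen with this contrast known, nothing is read from these counts. In bulk tissue a lower signal cannot tell fewer expressing cells from less RNA per cell.

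**Figure D1:**
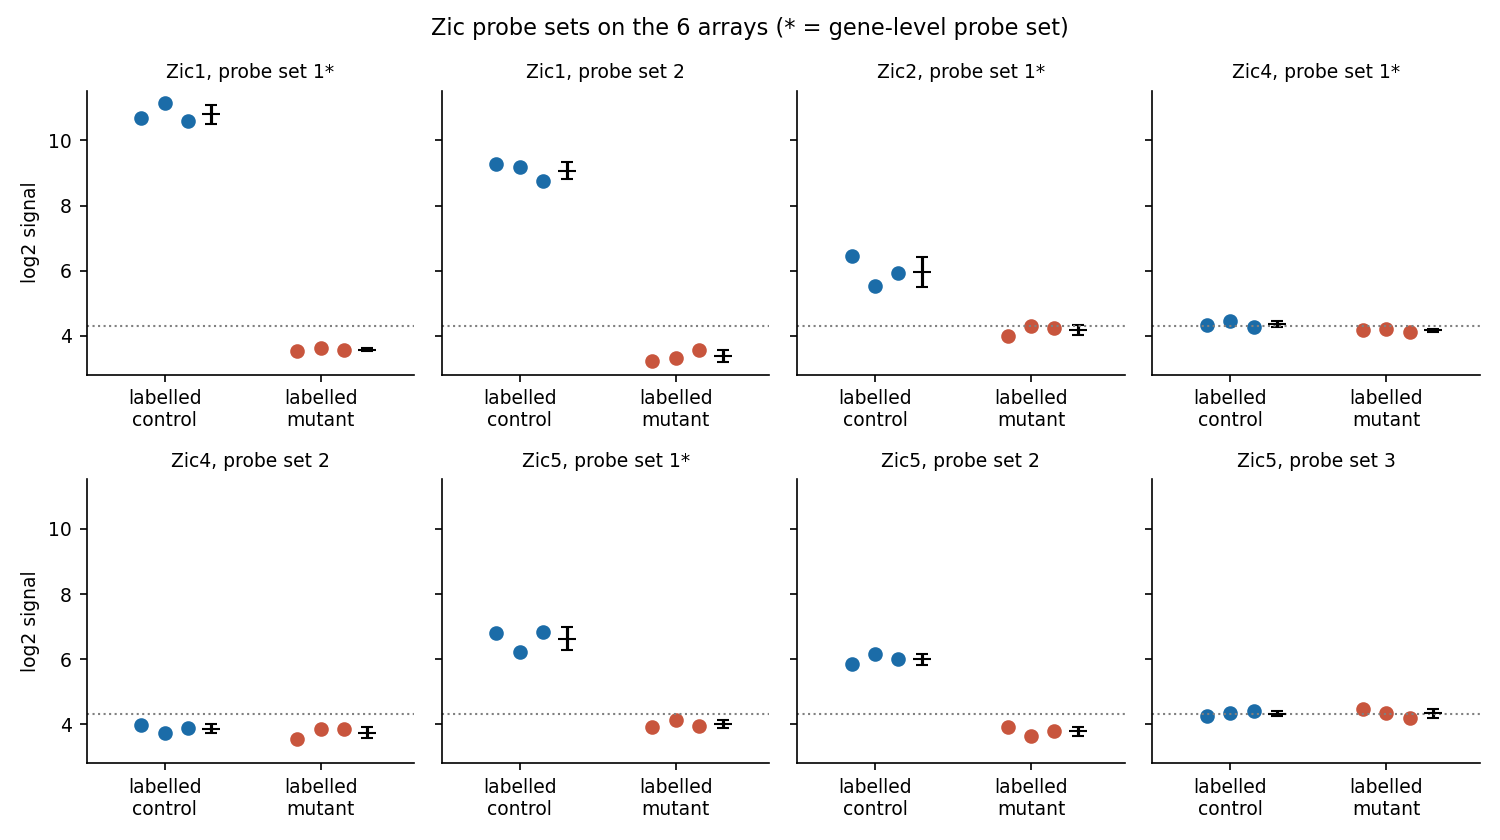
Log2 signal (y axis) of the 8 Zic probe sets on the 6 arrays, 1 panel per probe set, with points for arrays, a black mark with bars for mean ± SD (n = 3) and a dotted line at the 25th percentile of all probe sets (4.32). Both Zic1 probe sets, the Zic2 probe set and 2 of 3 Zic5 probe sets stood apart between the groups, and both Zic4 probe sets and the third of Zic5 lay near the dotted line in each group.

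Zic1, an activator of neural crest and dorsal neural genes at the neural plate border, had 2 probe sets. The brighter, 1423477_at, read 10.68, 11.13 and 10.59 on the labelled-control arrays 1 to 3, and 3.53, 3.64 and 3.58 on the labelled-mutant arrays. The lowest labelled-control array lay 6.95 above the highest labelled-mutant array on the log2 scale. The group means were 10.80 ± 0.29 and 3.58 ± 0.05, a log2 difference of -7.22 with a moderated standard error of 0.13, or 149-fold on the linear scale. This was rank 1 among the falls of all 18194 genes.

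The second Zic1 probe set, 1439627_at, read 9.26, 9.19 and 8.76 on labelled-control arrays 1 to 3, and 3.24, 3.33 and 3.58 on labelled-mutant arrays 1 to 3. Its groups were likewise wide apart, with a gap of 5.18 between the nearest arrays. The log2 difference was -5.68 with a standard error of 0.15 in the fit over all probe sets, or 51.4-fold. Within an array the first probe set exceeded the second by 1.73 ± 0.28 in the labelled-control arches and by 0.20 ± 0.18 in the labelled-mutant arches. All 3 labelled-mutant readings of both probe sets lay at the low end of the scale, so that both fold values depend on how that end was processed. Among the labelled-control arrays, array 2 was highest for the first probe set and array 1 for the second.

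Zic2, whose human counterpart is mutated in holoprosencephaly, a failure of forebrain division, had a single probe set, 1421301_at. It read 6.46, 5.54 and 5.92 on labelled-control arrays 1 to 3, and 4.01, 4.31 and 4.24 on labelled-mutant arrays 1 to 3. The groups did not overlap, with 1.23 between the nearest arrays. The spread within the labelled-control group was the widest among the 8 Zic probe sets, with array 1 high and array 2 low. The means were 5.97 ± 0.46 and 4.19 ± 0.16, a log2 difference of -1.79 with a standard error of 0.20, or 3.45-fold, at rank 66 among the falls. Leaving out each array in turn gave differences between -2.00 and -1.55. The labelled-mutant readings all lay below 4.32. With every signal raised to at least the array's 20th percentile, Zic2 no longer passed the threshold and 2 of 4 members did. The Zic2 difference itself was then -1.76.

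Zic5, which is needed for neural tube closure and neural crest development in the mouse, had 3 probe sets that did not give the same picture. The brightest, 1456219_at, read 6.82, 6.23 and 6.85 on labelled-control arrays 1 to 3, and 3.92, 4.14 and 3.97 on labelled-mutant arrays 1 to 3. The groups were apart by 2.10 at their nearest arrays, with means of 6.63 ± 0.35 and 4.01 ± 0.11. The log2 difference was -2.62 with a standard error of 0.16, or 6.16-fold, at rank 30 among the falls.

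The second Zic5 probe set, 1456140_at, read 5.84, 6.17 and 6.00 on labelled-control arrays 1 to 3, and 3.92, 3.65 and 3.80 on labelled-mutant arrays 1 to 3. The groups lay 1.92 apart at their nearest arrays, and the log2 difference was -2.21 with a standard error of 0.11, or 4.63-fold. Labelled-control array 2 was lowest for the first probe set and highest for the second. The third Zic5 probe set, 1425666_at, read 4.25, 4.35 and 4.40 on labelled-control arrays 1 to 3, and 4.47, 4.34 and 4.19 on labelled-mutant arrays 1 to 3. Its groups overlapped and its means of 4.33 ± 0.08 and 4.34 ± 0.14 differed by 0.00 with a standard error of 0.10. It read near the low end on every array, so it cannot show whether the RNA it was designed for differed. With the mean of all 3 probe sets the Zic5 difference was -1.61 in place of -2.62.

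Zic4, whose loss together with Zic1 is linked in humans to Dandy-Walker malformation of the cerebellum, had 2 dim probe sets. The brighter, 1456417_at, read 4.33, 4.46 and 4.28 on labelled-control arrays 1 to 3, and 4.18, 4.20 and 4.13 on labelled-mutant arrays 1 to 3. The groups were separated by only 0.08 at their nearest arrays, and the log2 difference was -0.19 with a standard error of 0.08, at rank 2391 among the falls. The other, 1421539_at, read 3.998, 3.74 and 3.88 on labelled-control arrays 1 to 3, and 3.55, 3.86 and 3.85 on labelled-mutant arrays 1 to 3. These groups overlapped, with a log2 difference of -0.12 and a standard error of 0.11. At such signals a small difference cannot tell whether Zic4 RNA changed. Zic1 and Zic4 thus gave log2 differences of -7.22 and -0.19 from neighbouring genes, while Zic2 and Zic5 gave -1.79 and -2.62.

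At probe set level, 5 of the 8 Zic probe sets passed in limma's fit over all 45101 probe sets, each lower in the labelled-mutant arches, where 1.77% of all probe sets did so. The groups did not overlap with the labelled mutant lower for 6 of the 8, against 8.8% of all probe sets. The 3 that did not pass were both Zic4 probe sets and the dimmest of Zic5. These 3 were also the dimmest in the labelled-control arches, with means of 3.87 to 4.36.

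The genes around the Zic pairs were read next, to see whether the low signals extended along the chromosome. In the reference gene order, the 5 nearest measured genes on each side of the Zic1-Zic4 pair had log2 differences between -0.91 and 0.19, of which 2 fell and 8 did not pass, where 4.3% of all genes fell. The nearest ones were Tbc1d2b on the side of Zic1 (0.04, SE 0.13) and Plscr1, a phospholipid scramblase gene, on the side of Zic4 (0.19, SE 0.10). The members that fell were Ctsh, encoding a lysosomal cysteine protease, from 7.10 ± 0.25 to 6.19 ± 0.18 (limma, Benjamini-Hochberg adjusted p = 0.00753), and Adamts7, encoding a secreted metalloprotease, by 0.32 (adjusted p = 0.047). Adamts7 lost its call under 10 of 14 alternatives (adjusted p 0.0387 to 0.19), including each array left out in turn, and Ctsh under 1 (0.0786, with floored signals). The other neighbours were Rasgrf1, 4930524O08Rik, Plscr2, 1700057G04Rik, Plscr4 and B430319G15Rik, which had log2 differences of 0.01, -0.14, -0.12, 0.07, 0.18 and -0.18.

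Around the Zic2-Zic5 pair the 10 neighbours had differences between -0.48 and 0.43, with 1 lower and 9 that did not pass, where again 4.3% of all genes were lower. The noncoding RNA gene Gm5089, the nearest measured gene beyond Zic5, read 4.86 ± 0.17 and 4.38 ± 0.10, a difference of -0.48 (limma, Benjamini-Hochberg adjusted p = 0.035), and lost its call under 7 of 14 alternatives (adjusted p 0.0284 to 0.151), among them arrays 2 and 3 of either group, each left out in turn. Pcca, the nearest beyond Zic2 and a subunit gene of propionyl-CoA carboxylase, differed by -0.21 (SE 0.08) without passing, and Clybl by -0.11 (SE 0.11). The noncoding RNA gene 2610035F20Rik, placed between Zic5 and Zic2, read 3.53 ± 0.29 and 3.50 ± 0.30, at the low end in both groups. Tm9sf2, Timm8a2, Gpr183, Ggact, 4930594M22Rik, Tmtc4 and Nalcn had differences of -0.19, 0.00, -0.35, -0.08, 0.43, 0.22 and 0.04. Each of the 20 neighbours differed by less than the smallest of the Zic1, Zic2 and Zic5 differences. The order is that of GRCm38.p6, and genes without a measured probe set were skipped.

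**Figure D2:**
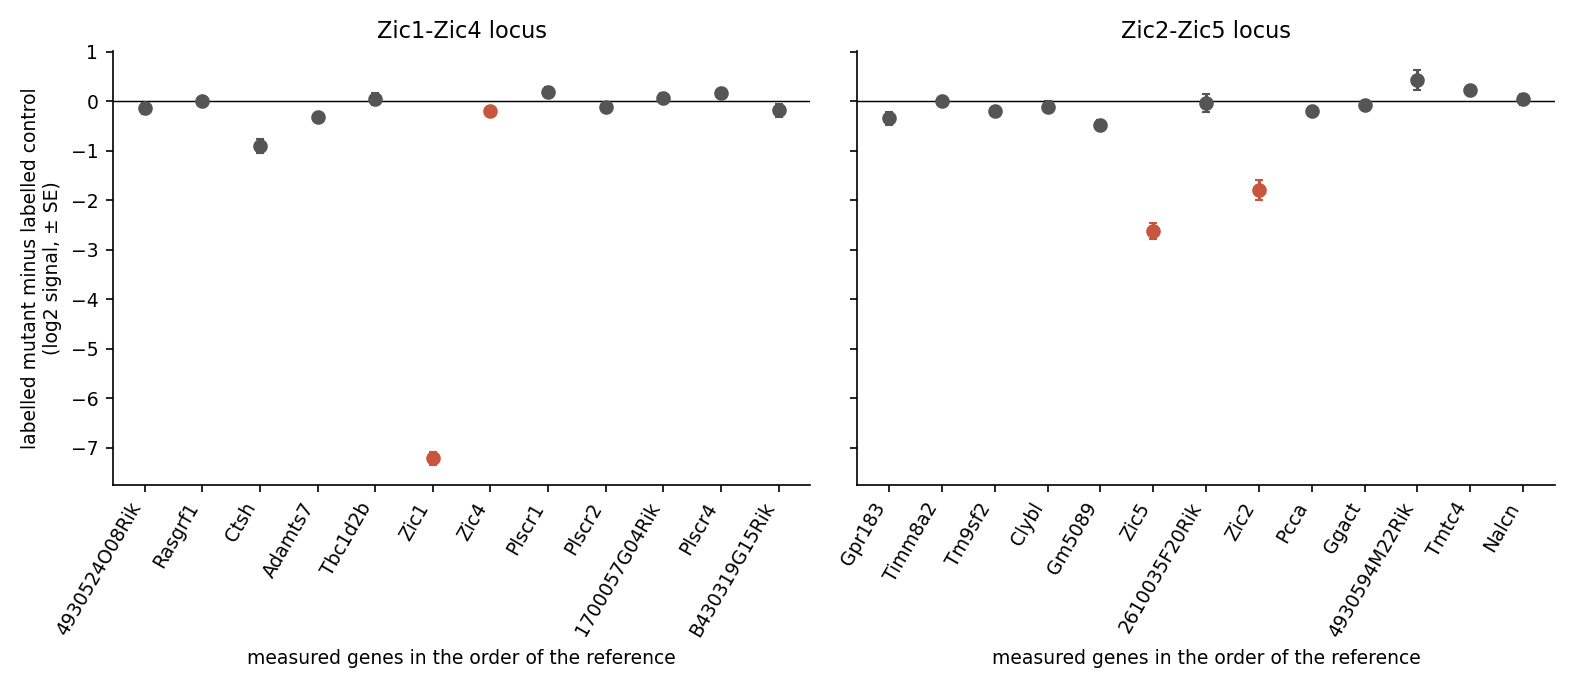
Difference in log2 signal, labelled mutant minus labelled control with its standard error (y axis), for measured genes in the order of the reference (x axis) around the Zic1-Zic4 pair and the Zic2-Zic5 pair. Zic genes are in red; Zic1, Zic5 and Zic2 lie below every neighbour, while Zic4 at -0.19 lies among them.

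For each member with a difference of at least 1, the genes with the nearest profiles were found by the Euclidean distance between log2 signals over the 6 arrays, each gene centred on its own mean. Zic genes, the sex-linked genes and genes with clone or predicted-gene names were left out, so that each rank holds only among the genes kept. Of those left out, Kdm5d, Eif2s3y and Uty differed by -6.23, -5.74 and -4.94, more than the -4.79 of Tcf24 below, and their distances are not given here. The genes listed share the contrast that chose the member and are given as a description. Nearest to Zic1 were the homeobox genes Hoxa9 (distance 0.68), Hoxa10 (0.79) and Hoxc8 (1.91), followed at a larger distance by the helix-loop-helix gene Tcf24 (3.27). Their log2 differences were -7.07, -6.71, -5.81 and -4.79, all smaller in size than that of Zic1. A second probe set of Hoxa9 and of Hoxa10 gave only -1.51 and -0.77. Hox genes give cells their position along the body axis and are normally silent in the first arch. Here the labelled-control arches were the ones with high Hox signals, with Hoxa9 at 11.28 ± 0.37 against 4.21 ± 0.36, Hoxa10 at 10.57 ± 0.23 against 3.86 ± 0.07 and Hoxc8 at 9.64 ± 0.33 against 3.83 ± 0.32 in the labelled-mutant arches. No value here settles whether the labels are right. Each direction given for a Zic gene is therefore that of the labels as deposited.

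Nearest to Zic2 were the arginase gene Arg2 (distance 0.68), the zinc-finger gene Tshz3 (0.71), the DNA sensor gene Cgas (0.73) and the homeobox gene Hmx1 (0.78). These differed by -1.49, -1.69, -2.24 and -1.76, against -1.79 for Zic2. Nearest to Zic5 were the protease gene Corin (0.60), the cell cycle inhibitor gene Cdkn2c (0.70), the homeodomain gene Onecut2 (0.74) and again Cgas (0.82). These differed by -2.50, -2.82, -2.64 and -2.24, against -2.62 for Zic5.

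**Figure D3:**
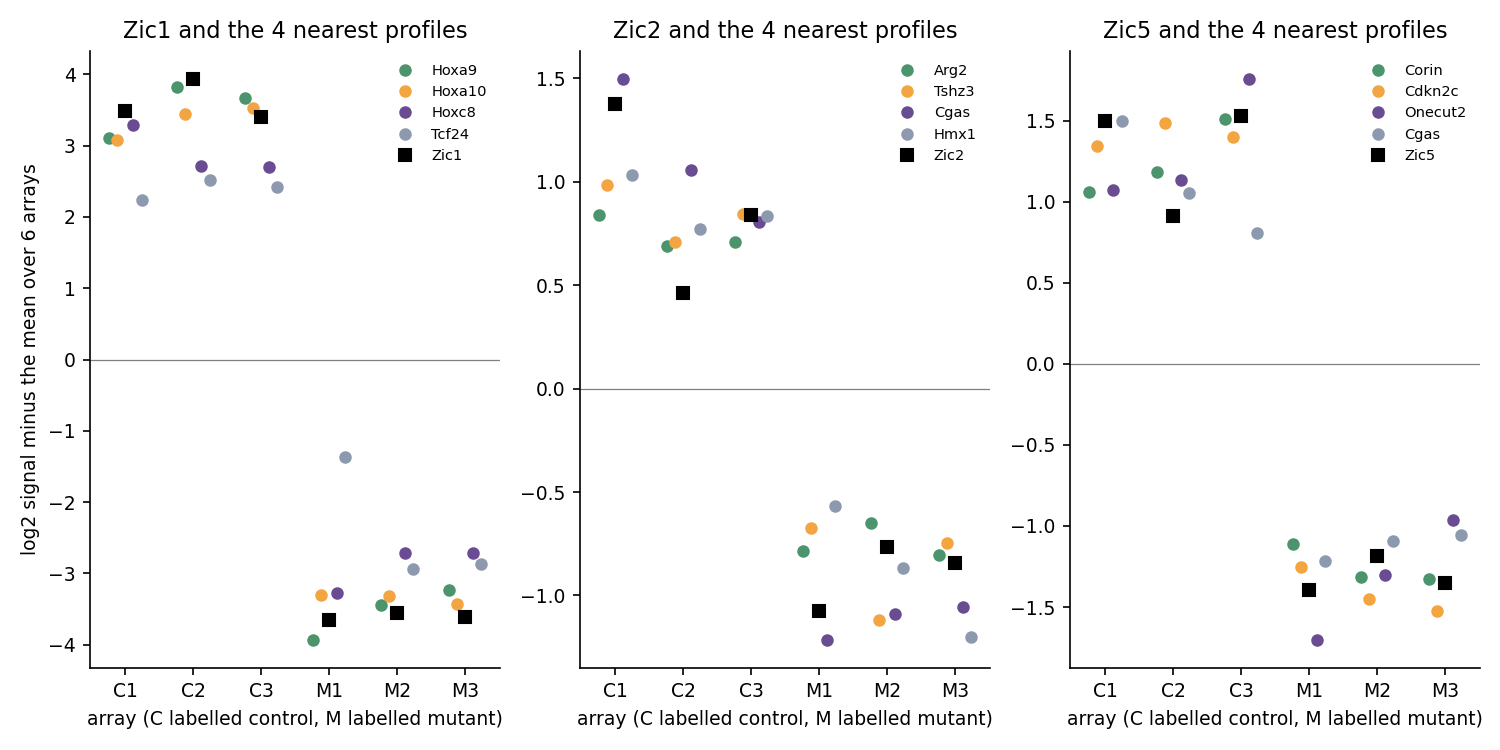
Log2 signal minus the mean over the 6 arrays (y axis) for Zic1, Zic2 and Zic5 (black squares) and the 4 genes nearest to each (coloured points), by array (x axis; C labelled control, M labelled mutant). Zic genes, the sex-linked genes and genes with clone or predicted-gene names were left out of the search. In each panel all 5 genes are above 0 on the 3 labelled-control arrays and below 0 on the 3 labelled-mutant arrays, and the y scales of the panels differ.

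The other genes of the Zic pathway did not share one direction. Of 21 neural plate border and crest specifiers, the genes that act with Zic1 when neural crest is induced, 7 rose, 3 fell and 11 did not pass. Among all genes 1.23% rose and 4.3% fell. The median log2 difference was 0.06 against 0.02 over all genes. Those that fell were Pax7 (-0.97), Sox10 (-0.66) and Ets1 (-0.62). The 3 with the largest test statistic all rose in the labelled-mutant arches. They were the homeobox gene Gbx2, by 2.73 from 5.11 ± 0.05 to 7.84 ± 0.13, Dlx5 by 1.18 and Msx2 by 1.10 (limma, Benjamini-Hochberg adjusted p = 9.3e-07, 0.00013 and 0.000814). Pax3, Foxd3 and Snai2, which lie downstream of Zic1 in Xenopus, had differences of -0.13, -0.16 and -0.38 that did not pass. Snai2 passed with limma's trend and robust settings (adjusted p = 0.0344) and once labelled-mutant array 1 was left out (0.0255).

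Of 11 genes reported as Zic targets or partners, 0 passed limma's threshold, where 4.3% of all genes fell and 1.23% rose. An unadjusted p under 0.05 was had by 3, 1 of them higher, against 3405 of all 18194 genes, 1554 of them higher. The median difference was -0.13. Ephb1, an axon guidance receptor gene activated by Zic2 in retinal neurons of the mouse, read 6.37 ± 0.14 and 5.95 ± 0.25, a difference of -0.42 (limma, Benjamini-Hochberg adjusted p = 0.131). Ptgds, a prostaglandin synthase gene downstream of Zic1 in Xenopus, differed by 0.18 and Mdfi, whose product binds Zic proteins, by 0.20. Atoh1, a proneural gene restrained by Zic1 in the chick neural tube, read 4.31 and 4.30, at the low end in both groups.

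Among the 6 Gli and Glis genes, the zinc-finger relatives of the family, 1 fell and 5 did not pass, where 4.3% of all genes fell and 1.23% rose. The median was -0.10. Gli1, a transcriptional target of Hedgehog signalling, read 8.58 ± 0.14 and 8.16 ± 0.04, a difference of -0.43 (limma, Benjamini-Hochberg adjusted p = 0.0308). Its call was lost under 7 of 14 alternatives (adjusted p 0.0243 to 0.142), including without labelled-control array 3 and without each labelled-mutant array. Glis1 and Glis2 differed by -0.22 and 0.18 without passing.

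Markers of tissues in which Zic genes are active, and of other tissues the dissection could hold, were read beside these values. The counts in the lists below stand against 4.3% lower and 1.23% higher among all genes, with a median log2 difference of 0.02. In the dorsal neural tube and roof plate list 4 of 13 fell and 0 rose (limma; unadjusted p under 0.05, 4 lower), with a median of -0.14. They included the Wnt agonist genes Rspo1 (-2.42) and Rspo3 (-1.60) and the paired box gene Pax7 (-0.97), and Olig3 lay at the low end on every array. The 9 that did not pass had differences from -0.19 to 0.13, among them Lmx1a (-0.19), Lmx1b (-0.14), Wnt1 (-0.07), Wnt3a (-0.04) and Msx3 (-0.07). With floored signals Rspo3 and Pax7 missed the threshold (limma, Benjamini-Hochberg adjusted p = 0.0661 and 0.0862). The mean log2 signal of the list was 5.93 to 6.08 over the labelled-control and 5.40 to 5.66 over the labelled-mutant arrays. In the somite and dermomyotome list 5 of 13 fell and 0 rose (limma; unadjusted p under 0.05, 7 lower), with a median of -0.49, among them Dmrt2 (-4.30), Pax1 (-2.10) and Pax7. Members that did not pass were Meox2 (-1.345), En1 (-0.49), Tcf15 (-0.23), Myf5 (-0.19), Pax3 (-0.13), Sim1 (-0.03), Alx4 (0.05) and Uncx (0.06). The mean signal of this list was 6.82 to 6.92 against 5.58 to 6.09, with Uncx and En1 at the low end on every array. The part of these tissues in the Zic values was not tested.

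Of 12 neural progenitor genes 1 fell, with a median of 0.05 and mean signals of 6.07 to 6.35 against 6.10 to 6.21. At an unadjusted p under 0.05 in limma's fit 2 differed, 1 of them higher. Sox2 fell by 0.67 (limma, Benjamini-Hochberg adjusted p = 0.0297; call lost under 6 of 14 alternatives, at up to 0.135, among them each array other than labelled-control arrays 2 and 3 left out), Msi1 differed by 0.40 and Pax6 by 0.16 without passing, and Dbx2 lay at the low end throughout. Pax6 turned to -0.49 and passed when its probe sets were averaged (limma, adjusted p = 0.00972), and Msi1 passed once labelled-mutant array 1 was left out (0.0499). Of 10 midbrain and hindbrain genes 3 fell and 1 rose, with En2 at -4.25, Otx2 at -1.27 and Gbx2 at 2.73. At an unadjusted p under 0.05 in limma's fit 7 differed, 3 of them higher. The median was -0.05, with mean signals of 5.67 to 5.87 against 5.31 to 5.48. En1 and Pax8 were at the low end throughout. Of 8 neuronal genes 5 fell, with Nefl at -2.56, Nefm at -2.51 and Isl1 at -0.85, a median of -0.74 and mean signals of 7.66 to 7.85 against 6.63 to 6.93. Isl1 lost its call when its probe sets were averaged and when low signals were floored. The 3 that did not pass were Elavl3 (-0.04), Pou4f1 (0.03) and Gap43 (0.25). The part of neural tissue in the Zic values was not tested.

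In the limb bud list 6 of 12 fell, among them Hoxd13 (-4.42), Lhx9 (-4.19) and Tbx4 (-1.52). Fgf10 (0.445), Pitx1 (-0.07), Shox2 (-0.16), Hoxa13 (-0.35), Hoxd11 (-0.23) and Hoxd12 (-0.10) did not pass. At an unadjusted p under 0.05 in limma's fit 9 differed, 1 of them higher. The median was -0.78, with mean signals of 6.95 to 7.31 against 5.73 to 5.85. Hoxd11 and Hoxd12 were at the low end throughout. In the meningeal and periocular list 2 of 7 fell, Tbx18 (-2.86) and Aldh1a2 (-1.40), and Foxd1 differed by -0.49 without passing. Foxc2 (0.37), Foxc1 (0.17), Crabp2 (0.02) and Lef1 (-0.08) did not pass either. At an unadjusted p under 0.05 in limma's fit 4 differed, 1 of them higher. The median was -0.08, with mean signals of 9.89 to 10.04 against 9.24 to 9.50. Tbx18 missed the threshold with floored signals (limma, adjusted p = 0.1) and with trend and robust settings (0.0546). Foxd1 passed in limma's fit once labelled-control array 3 was left out (adjusted p = 0.0241). Of 13 arch mesenchyme genes 7 rose and 0 fell (limma), with a median of 0.44, and 0 were lower at an unadjusted p under 0.05. Those that rose were Dlx5, Dlx2 (0.97), Dlx1 (0.67), Msx1 (1.15), Dlx6 (1.00), Hand2 (0.51) and Hand1 (0.44). Twist1 (-0.20), Tfap2a (-0.15), Gsc (-0.09), Barx1 (-0.08), Prrx1 (0.20) and Prrx2 (0.155) did not pass. Of 9 arch epithelium genes 1 rose, Krt8 by 0.52 (limma, Benjamini-Hochberg adjusted p = 0.0461; call lost under 9 of 14 alternatives, at up to 0.181, among them 5 of the 6 arrays left out in turn), while Krt18 (0.32) and Cldn6 (0.46) did not pass. The mean signal of that list was 8.84 to 9.41 against 9.08 to 9.16, with a median of 0.11. Krt18 and Cldn6 also passed in limma's fit once that array was left out (adjusted p = 0.031 and 0.0225). Among the genes that passed, Pax7, Tbx18, Gbx2, Dlx5 and Msx1 each stand in more than 1 list, so that the counts share genes. Pax3, Wnt1, Foxd3, Snai2, Atoh1, En1, Myf5, Tfap2a and Pitx1, which did not pass, also do. The arches with low Zic1, Zic2 and Zic5 signals were thus those in which these 7 arch mesenchyme genes were higher. In the same arches some genes of the limb, somite, neuronal and meningeal lists were lower. So were some of the dorsal neural tube, neural progenitor, and midbrain and hindbrain lists. Other members of those lists did not pass, except Gbx2, which rose.

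**Figure D4:**
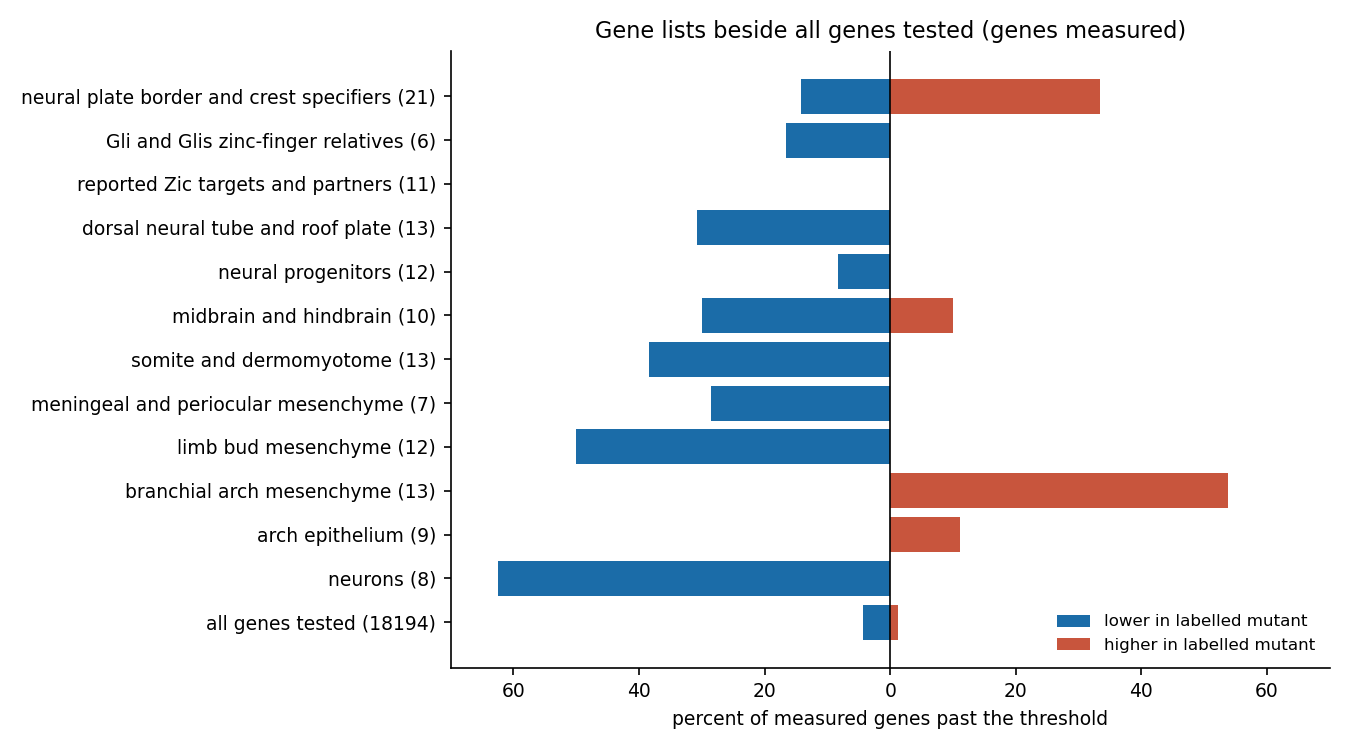
Percent of the measured genes of each list that passed an adjusted p of 0.05 (x axis), lower in the labelled-mutant arches to the left and higher to the right, with the number of genes measured in brackets and all genes tested in the bottom row. Among all genes 4.3% were lower and 1.23% higher; the reported Zic targets and partners have no bar.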

How the data were processed

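The authors deposited log2 signals, 1 per probe set and array, of biotin-labelled total RNA. The log2 scale was inferred from the values (2.63 to 14.68), and equal quantiles on all 6 arrays show that the authors had brought them to a common distribution, which hides any general shift. No label names the software, background correction or summary method. Of 45101 probe sets, 34958 had 1 gene symbol in the platform annotation, 932 several and 9211 none. Each of 18194 genes was represented by its brightest probe set, unfiltered.

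Differences were fitted with limma 3.58.1 (R 4.3.3; lmFit, eBayes, no covariate, two-sided, Benjamini-Hochberg adjustment over all genes, threshold 0.05). Standard errors are moderated. Further probe sets take theirs from a fit over all probe sets. Genes named are the Zic probe sets, the locus neighbours, the 3 members of each list with the largest absolute t, the 4 nearest profiles among the genes kept, the sex-linked genes and Ezh2. Pax3, Foxd3, Sox10, Ets1, Mdfi and Atoh1 were added after their values were seen. So were the neuronal genes that did not pass (Elavl3, Pou4f1, Gap43) and Lmx1a, Lmx1b, Wnt1, Wnt3a and Msx3. The markers at the low end of the scale (Olig3, Uncx, En1, Dbx2, Pax8, Hoxd11, Hoxd12) were added likewise. Further somite, limb and meningeal list members were also added (Meox2, Tcf15, Myf5, Sim1, Alx4, Fgf10, Pitx1, Shox2, Hoxa13, Foxc1, Foxc2, Crabp2, Lef1). The same holds for arch mesenchyme members (Msx1, Dlx6, Hand1, Hand2, Twist1, Tfap2a, Gsc, Barx1, Prrx1, Prrx2). Genes added in this way stand outside the counts of named genes, and their values under the alternatives are not given. The members and lists were chosen with earlier results of these data known. Labels call the samples biological replicates from separate embryos. Array correlations were 0.995 to 0.998 within and 0.988 to 0.992 between groups, and 0.302% to 0.816% of values were equal between arrays. The fit was tested on simulated data. Of 41 named genes outside the family that passed, 21 had further probe sets and 0 had one of opposite sign, though Kdm5d (-0.11), Eif2s3y (-0.76), Uty (-0.80), Hoxa9 (-1.51), Hoxa10 (-0.77), Isl1 (-0.10), Hoxd13 (-0.27), Lhx9 (-0.28), Rspo3 (-0.28), Tbx4 (-0.22) and Pax1 (-0.32), among others, had one with a far smaller difference.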

Additional observations from a re-analysis of the deposited data

How the results depend on the processing

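Over 14 alternatives Zic1, Zic2, Zic4 and Zic5 kept lower values in the labelled-mutant arches wherever they were fitted; Zic4 was left out by the filter on dim genes. The Zic1 difference of -7.22 became -6.45 when its probe sets were averaged and -6.72 when low signals were floored, and that of Zic5 became -1.61 when averaged, which takes in its flat probe set. Leaving out each array in turn gave -7.32 to -7.05 for Zic1, -2.82 to -2.52 for Zic5, -2.00 to -1.55 for Zic2 and -0.23 to -0.14 for Zic4. The count of genes past the threshold, 1007, became 329 with floored signals and ranged from 435 (without labelled-mutant array 3) to 1021 (without labelled-control array 1), with 481 without labelled-mutant array 2 and 551 without labelled-control array 2; the cause was not tested. Samples of 1 number deviated with correlations of -0.21, -0.12 and -0.07, so that the replicate numbers do not pair them, and no array correlated best with its own number. With the replicate block the count was 657, 3 Zic genes passed as before, and Adamts7, Gli1, Gm5089 and Krt8 lost their calls. Pax6, at 0.16 without passing, turned to -0.49 and passed when its probe sets were averaged (limma, Benjamini-Hochberg adjusted p = 0.00972). Of 41 named genes outside the family that passed, 31 passed under every alternative, and 10 missed the threshold under at least 1. The number of arrays and the low end of the scale limit the precision: detection calls were not used here, and differences at signals below 4.32 may be compressed.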
